A study of Rattus norvegicus with 192 samples.

Results

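The 2 groups compared are the 36 libraries with the most and the 36 with the least Mbp RNA, out of 147 libraries of rat nucleus accumbens core. Mbp encodes myelin basic protein, and the members were chosen by its level alone: libraries were ranked by Mbp counts per 1000000 expected counts (CPM), and the top 36 (high group) and bottom 36 (low group) were kept. Its own level is therefore given only as a description, and Mbp is not among the genes tested or counted. Besides ranking the libraries, Mbp was the predictor of the slopes tested in the libraries between the groups. It ranged from 9325 to 19356 CPM in the high group (median 10959.5), from 6119.7 to 9307 CPM in the 75 libraries between the groups, and from 4499 to 6107 CPM (median 5592) in the low group. The last library inside the high group had 9325 CPM and the first outside it 9307 CPM, and the first inside the low group had 6107 CPM against 6119.7 CPM for the last outside it. No gap in Mbp separates the groups from the middle, so they are the ends of 1 continuous range.

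Each library is polyA RNA of accumbens core tissue from a rat of the outbred heterogeneous stock, with 1 library per rat identifier. The series was made for genomic and statistical genetic work, and the labels give no treatment, strain beyond the stock, sex, age, date or batch, so the groups differ by no labelled factor. The table used here holds 159 libraries, and the rule keeps the 147 with at least 100 CPM of Drd1, the D1 dopamine receptor of accumbens medium spiny neurons. The rats' identifiers come in several formats that the labels do not explain, chiefly all digits (numeric label) and a start of E21 (E21 label). Of the high group, 11 libraries had a numeric label, 21 an E21 label and 4 another one, against 13, 22 and 1 of the low group. The shares of numeric and E21 labels did not differ detectably (odds ratio 0.886, Fisher's exact test, two-sided p = 1). P-values below measure only the spread between these libraries. In bulk tissue, more cells of a type cannot be told apart from more RNA per cell.

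Myelin is the stacked membrane that oligodendrocytes wrap around axons, and it speeds the action potential and feeds the axon. Myelin basic protein glues the cytoplasmic faces of that membrane together, and its mRNA is carried out into the oligodendrocyte processes and translated there. Oligodendrocytes arise from precursor cells that stay in the adult brain, and the accumbens core is crossed by myelinated fibres and lies around the anterior commissure, a large myelinated tract.

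Total expected counts were 23.0 ± 5.78 M (M, 1000000 expected counts; SD, n = 36) in the high group and 24.7 ± 7.47 M (SD, n = 36) in the low group, a difference of -1.74 M (permutation test, two-sided p = 0.291), and ranged from 14.6 to 61.2 M over all libraries. Drd1 reached 154 to 351 CPM (median 287) in the high group and 238 to 441 CPM (median 379) in the low group. Its presence in both groups was fixed in advance, since the rule kept libraries by it. Another 12 genes, shared by medium spiny neurons, summed to 5682 to 11359 CPM (median 9586) in the high group. They summed to 8447 to 12291 CPM (median 10574) in the low group. 3 libraries stood apart. An E21 library of the low group, ranked 143 of 147 by Mbp, had 9.18% of its counts on Zfp532, at 91845 CPM against a median of 2028 CPM over the 147 libraries. In the high group, a numeric library ranked 36 by Mbp and an E21 library ranked 21 fell among the lowest by the other myelin genes: a score of 14 myelin membrane protein genes without Mbp placed them at 146 and 122 of 147. The same 2 libraries ranked 5 and 8 by a score of 20 cytosolic ribosomal protein genes. A score is the mean of the genes' log2 levels after each gene is standardised over the 147 libraries.

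**Figure D1:**
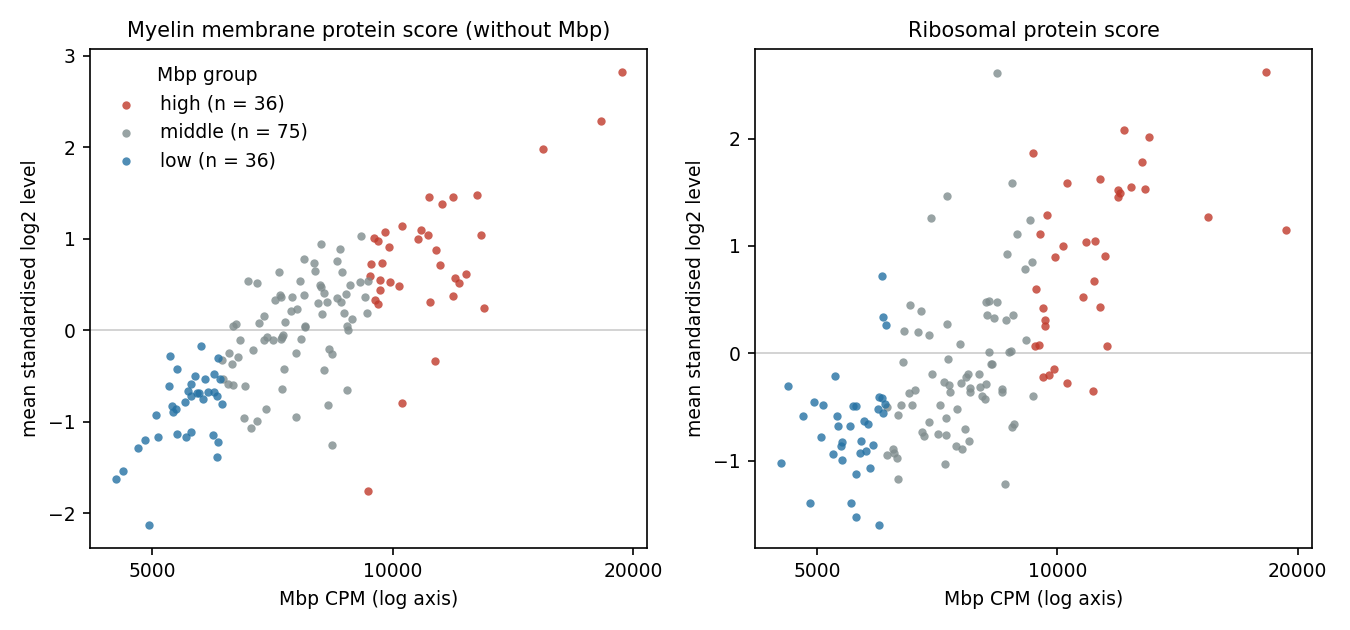
Myelin membrane protein score (left) and ribosomal protein score (right), in units of mean standardised log2 level, against Mbp CPM on a log axis, 1 point per library, coloured by Mbp group (36 high, 75 middle and 36 low). The 2 red points at the bottom of the left panel are high-Mbp libraries with scores of -1.75 and -0.80, and both scores run from a low-group median of -0.77 and -0.66 to a high-group median of 0.73 and 1.01.

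Differences between the groups were broad and small. Of 15326 genes tested other than Mbp (mean of at least 1 CPM), 5445 were higher in the high group, which is 35.5% of all genes, and 4437 were lower, which is 29.0%, by limma's moderated test on log2(CPM + 1) with Benjamini-Hochberg adjustment at 0.05. At an absolute log2 difference of at least 0.5, 397 of the higher and 335 of the lower genes remained. The median over all genes was 0.021. Counts of members below are read against these shares. Without the 2 high-group libraries of low myelin score 9686 genes were called, and without the Zfp532 library 10485, against 9882 with all libraries.

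Only 4 of the 15326 genes, 0.0261%, had every high library above every low library, and none had the reverse. Gna12, which encodes the G protein subunit alpha 12, had 408 to 774 CPM (median 526) in the high group and 231 to 369.9 CPM (median 332) in the low group, a log2 difference of 0.67 (SE 0.041, adjusted p = 1.98e-22). Bcas1, a marker of newly formed and myelinating oligodendrocytes, had 279 to 694 CPM (median 360.4) in the high group and 180.0 to 264 CPM (median 217) in the low group, a log2 difference of 0.76 (SE 0.050, adjusted p = 4.01e-21). At the closest libraries Bcas1 was at 279 against 264 CPM. Gprc5b, an orphan G protein-coupled receptor, and Ankrd40, an ankyrin repeat gene, differed less, by 0.37 and 0.40 on the log2 scale (adjusted p = 8.04e-18 and 4.39e-17). These 4 genes were picked out after their values were seen.

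**Figure D2:**
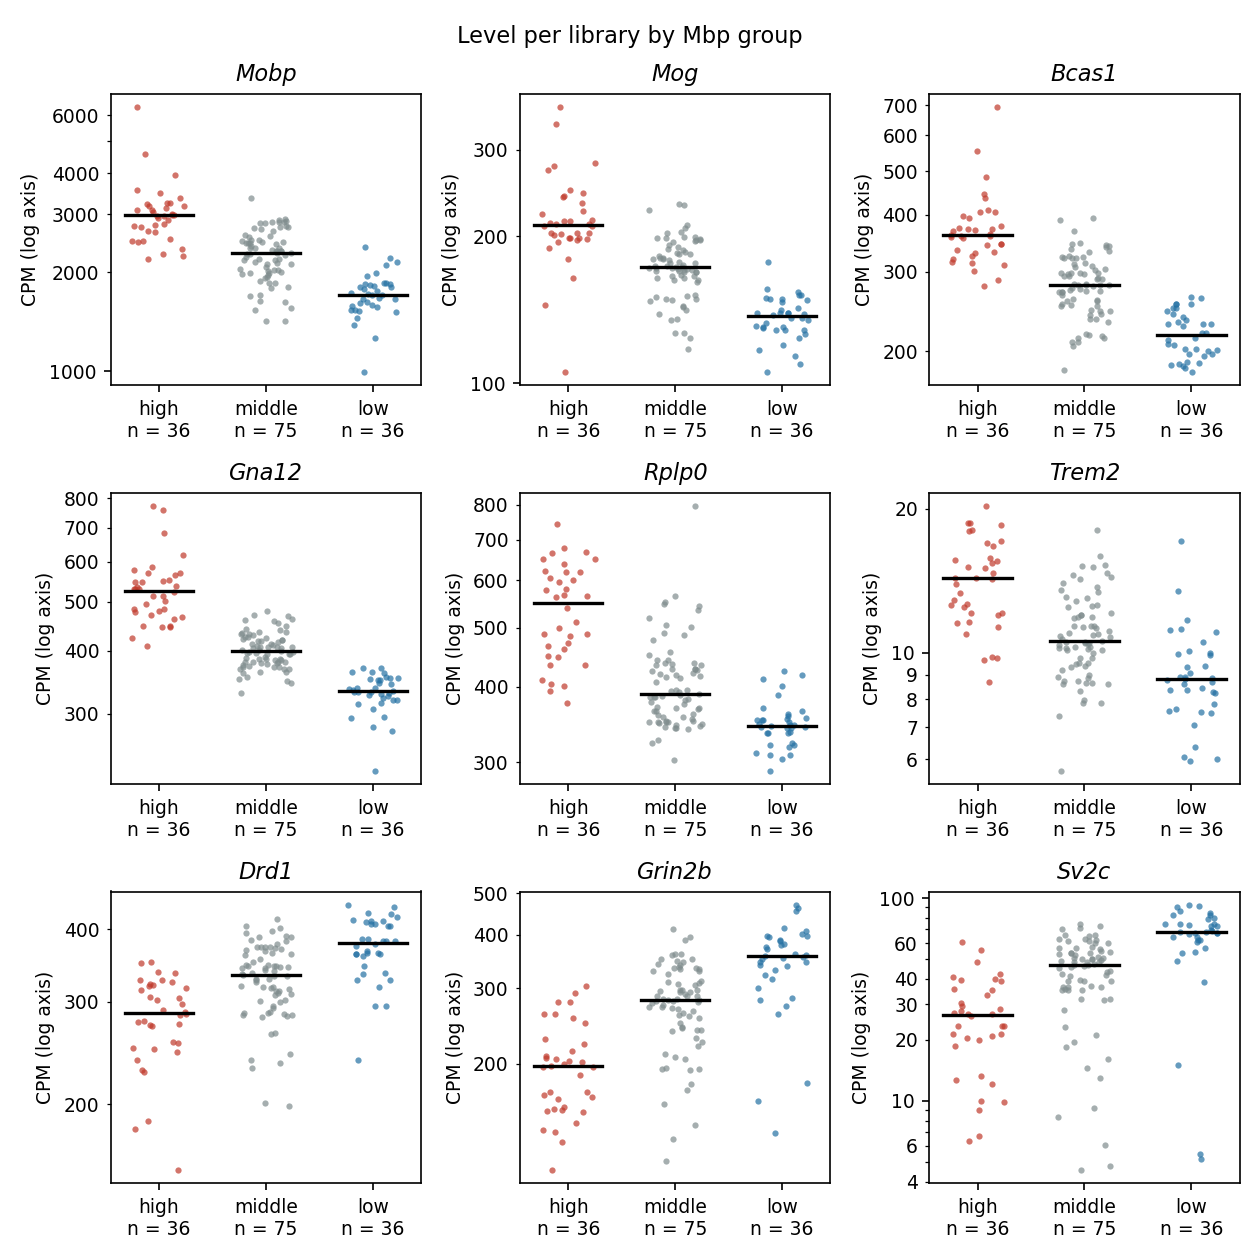
CPM of 9 genes on log axes, 1 point per library and a black line at the median of each Mbp group (high, middle, low). Bcas1 and Gna12 are the panels in which the high and low groups do not overlap. The median of the middle group lies between the other medians in all 9, while its libraries overlap both groups.

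Genes of myelin membrane proteins were mostly higher in the high group. Of the 14 genes of this list, 13 were higher and none lower, with a median log2 difference of 0.55. Mobp, the myelin-associated oligodendrocyte basic protein, which with Mbp marks the comparison, had 2192 to 6362 CPM (median 2972) in the high group and 994 to 2379 CPM (median 1708) in the low group, a log2 difference of 0.81 (SE 0.061, adjusted p = 1.78e-18). For Mobp, 32 of the 36 high libraries lay above every low library, so the overlap was slight. Mog, the outermost glycoprotein of the sheath, had 106 to 367.6 CPM (median 211) in the high group and 106 to 177 CPM (median 137) in the low group, a log2 difference of 0.65 (SE 0.056, adjusted p = 3.86e-16). For Mog, 33 of the 36 high libraries lay above every low library. Mal, a raft proteolipid, differed by 0.63 (SE 0.060, adjusted p = 2.20e-14).

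Pllp (plasmolipin) differed by 0.72, Cldn11, the claudin of the tight junctions between myelin layers, by 0.60, Opalin by 0.56 and Cnp, the cyclic nucleotide phosphodiesterase that keeps cytoplasmic channels in myelin open, by 0.55 (adjusted p from 6.26e-19 to 6.70e-12). Mag, the glycoprotein of the innermost, axon-facing membrane, had a smaller difference of 0.44 (SE 0.056, adjusted p = 3.70e-10), with 204 to 604 CPM (median 411) in the high group and 228 to 369 CPM (median 298) in the low group. The smallest differences that passed the test were those of Ermn, an actin-binding protein of the sheath, at 0.34, and Omg, a glycoprotein found on neurons as well, at 0.18. Cntn2, an adhesion molecule of the juxtaparanode made by both axon and glia, did not pass, at 0.091 (SE 0.089, adjusted p = 0.37). Cntn2 had 0.72 (SE 0.11, adjusted p = 1.16e-06) with the ribosomal protein score as a covariate, and all 14 genes were then higher, against 14.0% of all genes tested.

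The promoters of 4 of these genes are shown because the genes were higher together and hold motifs of oligodendrocyte factors, and that of Gna12 because it separated the groups without overlap. Each sequence is the 250 bases before the RefSeq start, 5′ to 3′ on the gene's strand, from the RefSeq promoter table of the rat assembly GRCr8. Capitals mark matches on either strand to ACAAAG, the core bound by SOX factors such as SOX10, or to CTGGCAC or CTGGTAC, forms of the motif of the myelin regulator MYRF. Capitals would also mark CCGGAAG, an ETS motif. No searched motif overlaps another in these 5 windows.
Mobp (GRCr8 chr8:128746982-128747231, plus strand): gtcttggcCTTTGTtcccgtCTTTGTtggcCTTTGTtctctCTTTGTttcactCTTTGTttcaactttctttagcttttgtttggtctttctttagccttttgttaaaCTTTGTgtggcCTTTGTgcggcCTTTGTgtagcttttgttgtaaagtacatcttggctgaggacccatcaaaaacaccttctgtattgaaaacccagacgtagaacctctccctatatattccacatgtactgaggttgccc
Mag (GRCr8 chr1:95291045-95291294, minus strand): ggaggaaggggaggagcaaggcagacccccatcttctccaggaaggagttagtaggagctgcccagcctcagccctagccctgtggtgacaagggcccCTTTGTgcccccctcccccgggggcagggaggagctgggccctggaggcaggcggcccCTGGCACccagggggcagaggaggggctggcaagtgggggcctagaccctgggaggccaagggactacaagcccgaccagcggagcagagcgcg
Cnp (GRCr8 chr10:86011254-86011503, plus strand): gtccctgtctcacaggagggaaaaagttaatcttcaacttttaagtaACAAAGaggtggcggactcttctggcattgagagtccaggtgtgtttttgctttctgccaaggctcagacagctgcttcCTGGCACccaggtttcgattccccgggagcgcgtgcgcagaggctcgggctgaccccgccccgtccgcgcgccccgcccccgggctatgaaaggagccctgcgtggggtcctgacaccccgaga
Opalin (GRCr8 chr1:249858191-249858440, minus strand): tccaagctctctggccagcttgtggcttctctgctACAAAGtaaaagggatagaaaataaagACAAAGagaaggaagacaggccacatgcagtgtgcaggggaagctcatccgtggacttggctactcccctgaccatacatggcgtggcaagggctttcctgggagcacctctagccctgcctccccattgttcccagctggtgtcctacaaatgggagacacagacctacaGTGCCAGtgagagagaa
Gna12 (GRCr8 chr12:18919379-18919628, plus strand): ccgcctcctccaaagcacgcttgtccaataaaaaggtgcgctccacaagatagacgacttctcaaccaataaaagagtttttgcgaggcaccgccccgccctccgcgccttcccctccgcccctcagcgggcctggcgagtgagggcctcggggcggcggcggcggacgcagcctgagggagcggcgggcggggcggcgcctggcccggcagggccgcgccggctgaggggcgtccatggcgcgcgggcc

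Mobp held 8 copies of the SOX core, all on the opposite strand and spaced through the first part of the window. Mag and Cnp each held 1 SOX core and 1 MYRF motif, and Opalin 2 and 1. Gna12 held no match. Of the 61 oligodendrocyte list genes with a promoter in the table, 12 (19.7%) held ACAAAG, against 12.0% of 12542 tested genes and 16.0% of all 27457 promoters. CTGGCAC was in 6 of the 61 (9.84%) against 3.79% of tested genes, and CTGGTAC in 3 (4.92%) against 1.61%. The ETS motif was in 2 of the 61 (3.28%) and in 13.3% of tested genes. A match describes letters in a short window and not a bound site, and the 4 promoters were chosen for holding matches. Gene starts in the deposited table lay within 1 base of the RefSeq start for 69.6% of the genes with a promoter.

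Of 26 other genes of mature oligodendrocytes tested, 24 were higher and none lower, with a median of 0.58. Ninj2, an adhesion protein, and Cryab, the small heat shock protein alpha B crystallin, had the highest values of the list, both 0.85 (SE 0.079 and 0.084, adjusted p = 1.11e-14 and 1.06e-13). Plekhb1, a pleckstrin-domain protein of myelinating cells, had 304 to 718 CPM (median 455) in the high group and 214 to 379 CPM (median 266) in the low group, a difference of 0.77 (SE 0.050, adjusted p = 2.53e-21), and 32 of the 36 high libraries lay above every low library. Sirt2, the deacetylase of tubulin that is abundant in myelin, differed less but with a narrow spread, by 0.56 (SE 0.036, adjusted p = 8.40e-22). Its levels were 271 to 468 CPM (median 315) in the high group and 179.8 to 279.7 CPM (median 216) in the low group, and 33 of the 36 high libraries lay above every low library. Car2, the cytosolic carbonic anhydrase, differed by 0.63, and Evi2a by 0.71. Pex5l and Tppp, the latter a microtubule-bundling protein, were the list's 2 genes that did not pass, at 0.023 and -0.013.

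The enzymes that make myelin lipids were all higher, 7 of 7, with a median of 0.50. Aspa, the aspartoacylase that frees acetate for lipid synthesis, had the largest difference, 0.69 (SE 0.060, adjusted p = 5.54e-16), followed by Elovl1, which lengthens very long chain fatty acids, at 0.64 (SE 0.052, adjusted p = 3.31e-17). Fa2h, which makes the 2-hydroxy fatty acids of myelin, differed by 0.53 and Ugt8, which makes galactosylceramide, by 0.45 (adjusted p = 3.99e-13 and 1.15e-10). Of the 7 genes of gap junctions and paranodes of oligodendrocytes, 6 were higher, with a median of 0.56. Hapln2, a matrix linker at nodes of Ranvier, had 46.2 to 153 CPM (median 92.1) in the high group and 35.1 to 67.3 CPM (median 53.2) in the low group, a difference of 0.77 (SE 0.062, adjusted p = 2.07e-17), and 34 of the 36 high libraries lay above every low library. Gjb1, the gap junction protein connexin 32, differed by 0.64 (SE 0.051, adjusted p = 1.56e-17). Nfasc, which is made by both neurons and oligodendrocytes as different isoforms, did not pass, at -0.073 (SE 0.076, adjusted p = 0.399).

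Genes earlier in the lineage were taken next. Of 9 genes of newly formed oligodendrocytes, 7 were higher and 1 lower, with a median of 0.42. After Bcas1, Bmp4, a secreted factor of differentiating cells, had the largest difference at 0.64 (SE 0.059, adjusted p = 5.23e-15). Enpp6 differed by 0.42 and Gpr17, a receptor of committed precursors, by 0.21. Cemip2, a hyaluronidase of the cell surface, was lower by the test at -0.17 (SE 0.069, adjusted p = 0.0259). Without the 2 high-group libraries of low myelin score, none of the 9 genes was lower, 7 were higher, and the median was 0.44. Those 2 libraries were picked for low levels of other myelin genes, so this is a description.

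Of 10 genes of oligodendrocyte precursors, 8 were higher and none lower, with a median of 0.19. C1ql1 and Matn4 had the largest differences, 0.50 and 0.43. Pdgfra, the receptor that defines precursors, had 56.6 to 120.2 CPM (median 77.6) in the high group and 30.7 to 92.7 CPM (median 74.1) in the low group, a difference of 0.10 (SE 0.058, adjusted p = 0.142) that did not pass, and the groups overlapped over most of their range. Cspg4, the NG2 proteoglycan, passed narrowly at 0.14 (SE 0.063, adjusted p = 0.0458), and Sox6 had 0.00082, on a spread of SE 0.053.

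Of the 10 transcription factors of the lineage, 7 were higher and none lower, with a median of 0.25. Olig1, the basic helix-loop-helix factor needed for myelin repair, had 182 to 462 CPM (median 256) in the high group and 126 to 203 CPM (median 161) in the low group, a difference of 0.69 (SE 0.058, adjusted p = 1.11e-16), and 31 of the 36 high libraries lay above every low library. Its relative Olig2, which specifies the lineage, differed by 0.51 (SE 0.063, adjusted p = 1.20e-10) and Nkx6-2 by 0.51 (SE 0.054, adjusted p = 8.58e-13). Sox10 differed by 0.37 and Myrf, which switches on the myelin genes, by 0.28 (adjusted p = 4.84e-09 and 1.93e-05). Sox8 had 47.3 to 91.9 CPM (median 70.5) in the high group and 53.1 to 88.9 CPM (median 70.7) in the low group, a difference of 0.017 (SE 0.050, adjusted p = 0.779).

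Over the 7 oligodendrocyte lists, 72 of 83 genes were higher, 1 was lower and 10 did not pass, with a median of 0.50. Without the 2 high-group libraries of low myelin score 73 were higher and none lower. Since the genes of that score are among the 83, this count is a description. The 10 genes that did not pass were Cntn2, Nfasc, Sox8, St18, Zfp536, Tppp, Pex5l, Itpr2, Pdgfra and Sox6. Their median genomic span was 200.1 kb against 20.8 kb for the 83, but the spans were split. Sox8 spans 4.99 kb, Tppp 24.0 kb, Cntn2 30.8 kb and Pdgfra 48.6 kb, and the others 186.6 kb or more.

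**Figure D3:**
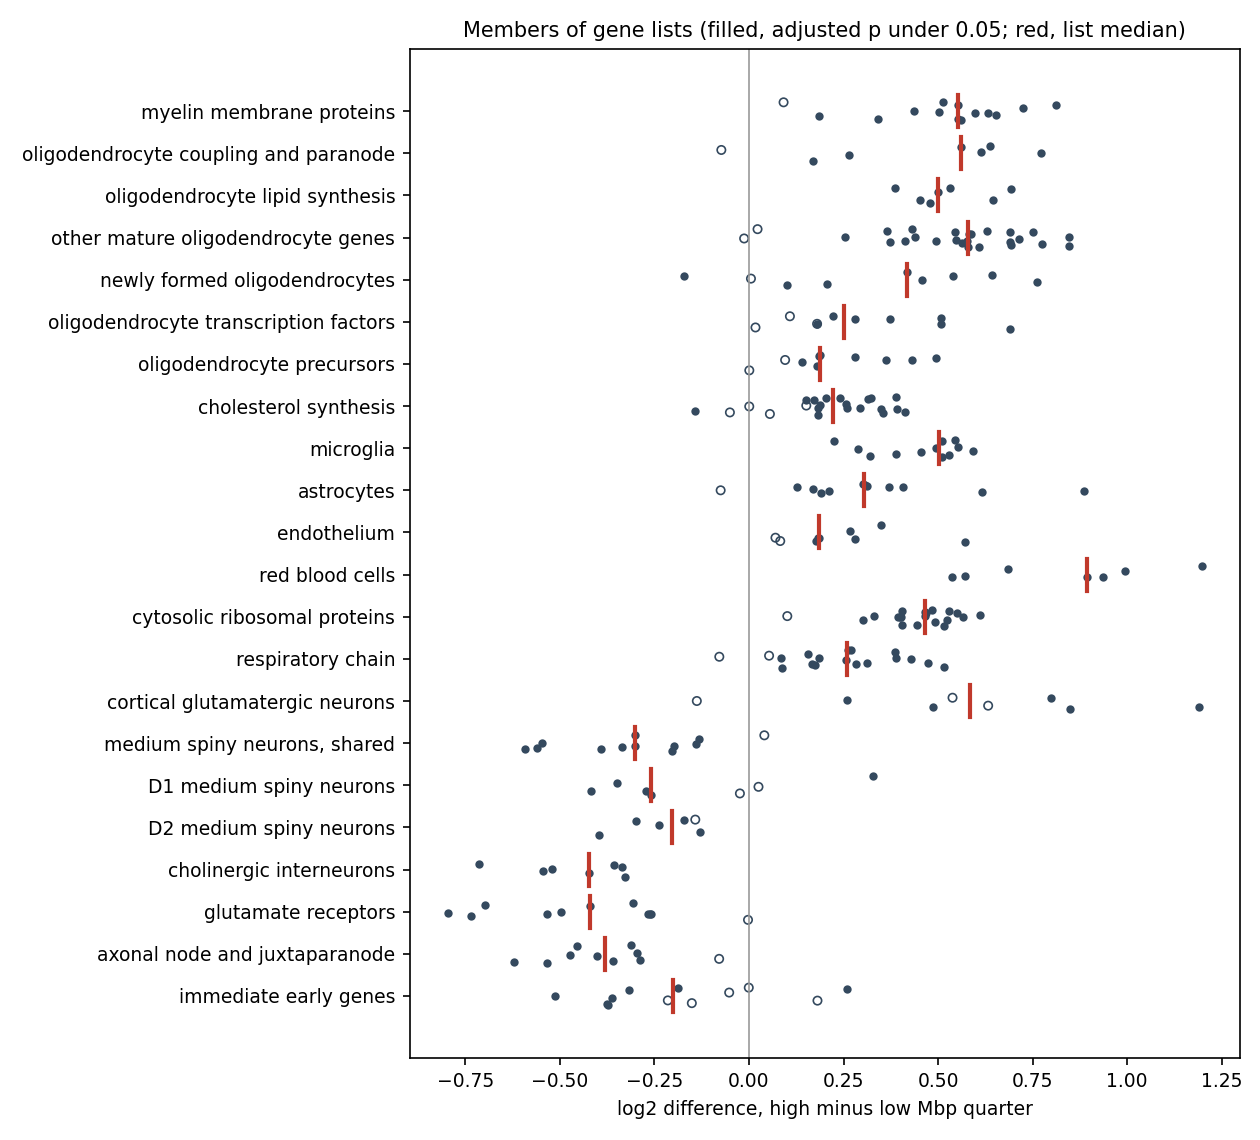
Log2 difference between the high and low Mbp group for each member of 22 gene lists, 1 point per gene, filled where the adjusted p was under 0.05, with the list median in red. Medians of the oligodendrocyte lists lie between 0.19 and 0.58, and those of the ribosomal protein and microglia lists reach the same range. Those of the medium spiny neuron, cholinergic, glutamate receptor, axonal node and immediate early lists lie between -0.42 and -0.20. The median of the cortical neuron list is 0.59.

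Levels in the 75 libraries between the groups, which the group comparison did not use, are a separate set of samples. There the slope of log2(CPM + 1) on log2 Mbp CPM was tested for the same genes: 839 genes had a positive slope, 5.47% of all, and 992 a negative one, 6.47%. Of the 83 oligodendrocyte genes, 41 had a positive slope by the test and none a negative one, and the median slope was 0.39, with -0.0095 over all genes. Mobp had a slope of 0.89 (SE 0.14, adjusted p = 4.28e-05), Bcas1 0.74 (SE 0.13, adjusted p = 1.26e-04) and Gna12 0.46 (SE 0.061, adjusted p = 5.25e-07). A slope of 1 would mean that a gene doubled when Mbp doubled. None of the 10 precursor genes had a slope that passed, which for 10 genes is near the shares over all genes, and their median was -0.020.

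The genes whose levels were most like Mbp over the middle 75 libraries were Gna12, Sirt2, Plekhb1, Cmtm5, Cenpb, Gltp, Cd9, Mobp, Tmbim1 and LOC103691527, with Spearman's rho from 0.60 to 0.68, given as a description. These libraries share the scaling to total counts. Of the 10, 3 are in the oligodendrocyte lists. Cd9, a tetraspanin, had 89.4 to 263 CPM (median 142) in the high group and 56.4 to 119.8 CPM (median 80.3) in the low group, and between the groups it differed by 0.82 (SE 0.063, adjusted p = 4.33e-18). Of its high libraries, 28 lay above every low one. Gltp, the glycolipid transfer protein, differed by 0.62 (SE 0.046, adjusted p = 1.02e-18).

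Myelin formation draws on sterol and fatty acid synthesis. Of 22 cholesterol synthesis genes, 17 were higher and 1 lower, with a median of 0.22. Cyp51, the lanosterol demethylase, had 126 to 224 CPM (median 159.7) in the high group and 89.1 to 156 CPM (median 124) in the low group, a difference of 0.35 (SE 0.041, adjusted p = 2.26e-11), and Mvk, the mevalonate kinase, differed by 0.32 (SE 0.033, adjusted p = 2.94e-13). Of 11 fatty acid synthesis genes, 7 were higher and 2 lower, with a median of 0.17, and Scd2, the stearoyl-CoA desaturase, differed by 0.33 (SE 0.039, adjusted p = 3.82e-11). In the middle libraries no cholesterol gene had a slope that passed, and the median slope was -0.033. Over all genes 5.47% had a positive slope and 6.47% a negative one, so none of 22 is near those shares.

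Genes of microglia, astrocytes, endothelium and red blood cells were also mostly higher. All 12 microglia genes were higher, with a median of 0.50, and their summed level was 482 to 905 CPM (median 660.4) in the high group and 424 to 623 CPM (median 488) in the low group. Trem2, a lipid-sensing receptor of microglia, had 8.71 to 20.3 CPM (median 14.3) in the high group and 5.94 to 17.1 CPM (median 8.80) in the low group, a difference of 0.59 (SE 0.066, adjusted p = 5.98e-12). Its groups overlapped widely, with 6 high libraries above every low one. Laptm5 differed by 0.51 and Csf1r, the receptor on which microglia depend, by 0.32 (adjusted p = 3.87e-14 and 9.25e-12). Of 12 astrocyte genes, 11 were higher and none lower, with a median of 0.30. Gfap, the intermediate filament that is abundant in astrocytes of white matter, had 148 to 432 CPM (median 262) in the high group and 74.9 to 217 CPM (median 142) in the low group, a difference of 0.89 (SE 0.086, adjusted p = 3.33e-14), and S100b, which oligodendrocytes also express, had 0.62 (adjusted p = 1.56e-16). Aldh1l1, a general astrocyte marker, differed by 0.31. None of the microglia or astrocyte genes was at 0 in either group, and the part of these cells in the other results was not tested.

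Of 9 endothelial genes, 7 were higher, with a median of 0.19 and the largest difference in Cldn5, the claudin of the blood-brain barrier, at 0.57 (SE 0.059, adjusted p = 4.97e-13). All 7 red blood cell genes were higher, with a median of 0.89. Their summed level was 159 to 1286 CPM (median 347) in the high group and 109.8 to 569 CPM (median 179) in the low group, and the groups overlapped over most of that range. With the ribosomal protein score as a covariate none of the 7 and 1 of the 9 endothelial genes was higher, with medians of 0.49 and 0.11. In that fit 14.0% of all genes were higher, and both counts are near that share. Without the covariate Hba-a1 had a difference of 0.89 (SE 0.14, adjusted p = 7.22e-08). Globin copies are near identical and reads can be shared between them. None of 6 meningeal fibroblast genes and none of 4 ependymal genes passed the test.

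Ribosomal protein and respiratory chain genes were higher too. Of 20 cytosolic ribosomal protein genes, 19 were higher and none lower, with a median of 0.47. Rplp0, a protein of the ribosomal stalk, had 375.1 to 742 CPM (median 551) in the high group and 290.2 to 425 CPM (median 345) in the low group, a difference of 0.61 (SE 0.048, adjusted p = 1.15e-17), and 31 of the 36 high libraries lay above every low library. Rps3 differed by 0.55 (SE 0.045, adjusted p = 4.07e-17). Of 18 nuclear-encoded respiratory chain genes, 16 were higher, with a median of 0.26: Cox4i1 of complex IV differed by 0.47 (SE 0.047, adjusted p = 7.56e-14). Fth1, the heavy chain of the iron store ferritin, differed by 0.58 (SE 0.059, adjusted p = 2.58e-13).

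The direction of a gene's difference followed its genomic span, the distance from start to end of the gene in the RefSeq table of GRCr8. Protein-coding genes were put in 5 bins of nearly equal number. In the bin of the shortest spans (up to 8.44 kb), 57.1% were higher and 11.2% lower, with a median of 0.16. In the bin of the longest spans (80.5 kb and above), 17.4% were higher and 53.1% lower, with a median of -0.13. The 3 bins between them had medians of 0.082, 0.024 and -0.051 in order of span. The oligodendrocyte genes had a median span of 20.8 kb against 25.5 kb for all 14072 coding genes tested, both in the middle bin.

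**Figure D4:**
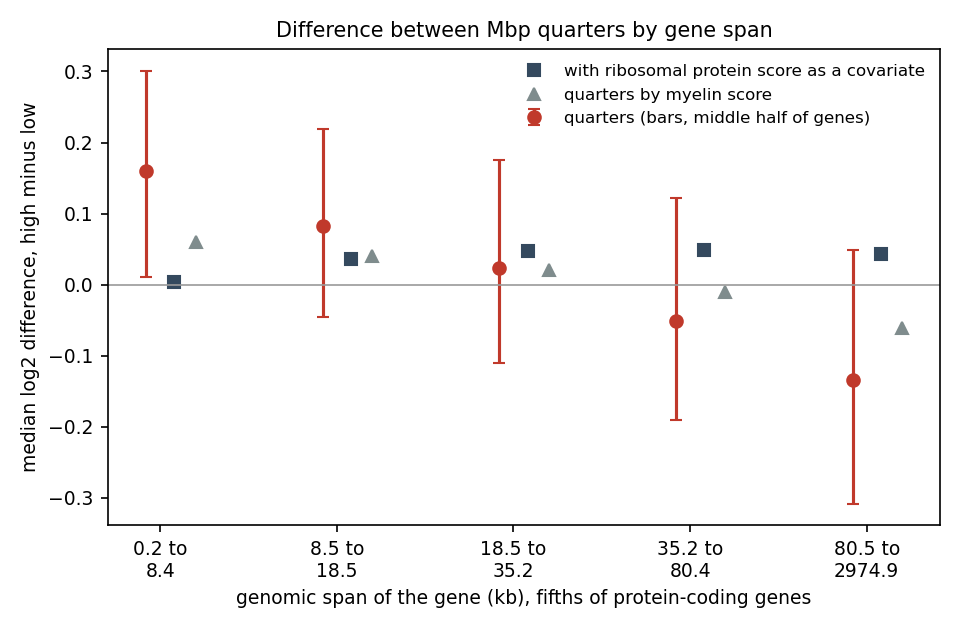
Median log2 difference between high and low groups for 5 bins of 14072 protein-coding genes by genomic span in kb. Red points give the Mbp groups with bars from the lower to the upper quartile of genes, squares the same with the ribosomal protein score as a covariate, and triangles the groups by myelin score. The red medians fall from 0.16 to -0.13, the squares stay between 0.0035 and 0.049, and the triangles fall from 0.060 to -0.060.

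Because ribosomal protein genes moved with the groups, the comparison was fitted again with the ribosomal protein score as a covariate, an alternative added after seeing the data. It called 2153 genes higher (14.0%) and 1033 lower (6.74%). The score itself differed between the groups, with medians of 1.01 in the high and -0.66 in the low group. The SE was 0.098 with it against 0.061 without it for Mobp, and 0.080 against 0.050 for Sox8. Whether larger SEs account for the fewer calls was not tested. Of the 83 oligodendrocyte genes 75 were higher and none lower, and their median was 0.51 against 0.50 without the covariate. Of the 10 that had not passed, 8 were higher: Cntn2 had 0.72 (SE 0.11, adjusted p = 1.16e-06) and Nfasc 0.51 (SE 0.085, adjusted p = 6.99e-06). Mobp kept 0.80 (SE 0.098, adjusted p = 1.04e-08). The microglia list had a median of 0.14 with 3 of 12 higher, the astrocyte list 0.067 with 3 higher and 1 lower, and the respiratory chain list 0.0054 with 1 of 18 higher. Myrf had 0.59 and the myelin membrane list a median of 0.66. What the ribosomal score stands for in these libraries was not tested.

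In the middle libraries with the same covariate, 207 genes had a positive slope, 1.35% of all, and 4 a negative one, 0.0261%. Of the 207, 47 were among the 83 oligodendrocyte genes. None of the 12 microglia genes had a slope that passed, which for 12 genes is near the shares over all genes. Without the covariate 8 of the 12 had a positive slope, against 5.47% of all genes.

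Several lists of neuronal genes were mostly lower in the high group. Of 12 genes shared by medium spiny neurons, the projection neurons that make up most of the striatum, 11 were lower and none higher, with a median of -0.30. Foxp1, a striatal transcription factor, had 95.7 to 179 CPM (median 142) in the high group and 135 to 259.8 CPM (median 209) in the low group, a difference of -0.56 (SE 0.048, adjusted p = 4.20e-16), and all 36 high libraries were below the low median. Bcl11b, another such factor, differed by -0.59 (SE 0.054, adjusted p = 5.50e-15). Ppp1r1b, the phosphoprotein DARPP-32, which was picked after its value was seen, differed less, by -0.14 (SE 0.055, adjusted p = 0.0218). Drd1, which also set which libraries were kept, differed by -0.42, and Penk, the enkephalin precursor of D2 neurons, by -0.24. With the ribosomal covariate 6 of the 12 were lower and none higher, against 6.74% and 14.0% of all genes. Their median was then -0.21, and Foxp1 had -0.45.

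All 7 genes of cholinergic interneurons, the large acetylcholine-releasing cells of the striatum, were lower, with a median of -0.42. Chat, which makes acetylcholine, had 7.56 to 21.2 CPM (median 13.4) in the high group and 9.51 to 25.5 CPM (median 19.7) in the low group, a difference of -0.55 (SE 0.074, adjusted p = 1.84e-09), and Slc5a7, the choline transporter, differed by -0.71 (SE 0.095, adjusted p = 1.08e-09). Of 11 glutamate receptor genes, 10 were lower, with a median of -0.42, and Grin2b, an NMDA receptor subunit, had 113 to 304 CPM (median 197) in the high group and 138 to 470.5 CPM (median 356) in the low group, a difference of -0.80 (SE 0.085, adjusted p = 9.75e-13), and again all 36 high libraries were below the low median. Gria2, an AMPA receptor subunit, differed by -0.50. Of 10 genes of the axonal node and its flanks, where myelin meets the axon, 9 were lower, with a median of -0.38. Cntnap2, which holds potassium channels beside the node, differed by -0.62 (SE 0.066, adjusted p = 7.89e-13) and Scn8a, the main sodium channel of mature nodes, by -0.53 (SE 0.079, adjusted p = 2.01e-08).

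With the ribosomal covariate 14.0% of all genes were higher and 6.74% lower. The cholinergic list then kept a median of -0.38 with 5 of 7 lower. Of the glutamate receptors none was lower and 1 was higher, with a median of -0.11, and Grin2b had -0.12 (SE 0.093, adjusted p = 0.36). The node list had 2 genes higher and 1 lower, with a median of 0.090, and Scn8a had 0.16 (adjusted p = 0.104). Counts of the glutamate receptor and node lists are near the shares over all genes in this fit. Immediate early genes, which mark recent neuronal activity, had 6 of 12 lower and 1 higher without the covariate, with a median of -0.20. With the covariate 5 were lower and none higher. Egr1 among them differed by -0.37 (SE 0.069, adjusted p = 3.07e-06).

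Counts for the remaining lists follow. Of the genes of D1 medium spiny neurons 4 of 7 were lower and 1 higher, and of those of D2 neurons 5 of 6 were lower. The D1 list includes Drd1, which set which libraries were kept, so its count is in part a description. GABA interneuron genes had 1 of 9 higher and 3 lower, neurofilament and axon genes 3 of 8 higher and 4 lower, and synaptic vesicle release genes 5 of 14 lower. Septal, pallidal and diencephalic genes had 2 of 8 higher and 1 lower, and midbrain dopamine genes 1 of 3 higher. Mural cell genes had 2 of 8 higher and 1 lower. Iron handling genes had 7 of 10 higher and 1 lower, and housekeeping genes 5 of 10 higher and 1 lower. Glucocorticoid response genes had 7 of 10 higher and 2 lower. With the ribosomal covariate 2 of these 10 were higher and none lower, near the 14.0% and 6.74% of all genes.

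Genes of cortical projection neurons, which the accumbens lacks, were spread widely in both groups. Their list had 5 of 8 genes higher and a median of 0.59, but within E21 libraries none was higher and 1 lower (median 0.44), where 32.5% of all genes were higher and 25.7% lower. Within numeric libraries 3 were higher (median 0.89), where 17.8% of all genes were. With the ribosomal covariate 1 was higher (median 1.01), where 14.0% of all genes were. Slc17a7, which loads glutamate into the synaptic vesicles of these neurons, had 1.92 to 1022 CPM (median 271) in the high group and 2.74 to 636 CPM (median 85.7) in the low group, a difference of 1.19 (SE 0.42, adjusted p = 0.0111), with the 2 groups overlapping over nearly the whole range, and -0.47 with the medium spiny neuron score as a covariate. In the middle libraries the list had 1 of 8 slopes negative by the test and none positive, with a median of -0.83. There 6.47% of all genes had a negative slope. With the list's own score as a covariate 9635 of 15326 genes were called, 5369 of them higher, and 73 of the 83 oligodendrocyte genes were higher.

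Leaving aside locus-number symbols, the 12 with the largest rise were Eif2s3y, Rpl37, Ddx3y, Cck, Rpl30l2, Cox7a2l2, Hbb-b2, Slc17a7, Kdm5d, Hbb, Uty and Hbb-bs, none of them a myelin gene. Eif2s3y, Ddx3y, Kdm5d and Uty lie on the Y chromosome. Eif2s3y had 0 to 58.3 CPM (median 43.3) in the high group and 0 to 49.3 CPM (median 0) in the low group, a difference of 1.59 (SE 0.62, adjusted p = 0.0207). The largest fall was that of Xist, the RNA that silences 1 X chromosome in females, at -2.74 (SE 1.0, adjusted p = 0.0171), and 14 of 36 high, 38 of 75 middle and 24 of 36 low libraries had at least 100 CPM of it, while the others had at most 0.932 CPM. The labels give no sex. With the side of Xist as a covariate 10106 of 15326 genes were called, 5349 of them higher. In that fit Eif2s3y had 0.045 (SE 0.027, adjusted p = 0.124), and 13 of the 14 myelin membrane proteins were higher with a median of 0.51. Cck, the cholecystokinin precursor, differed by 1.29 (SE 0.31, adjusted p = 2.33e-04), and by -0.18 with the medium spiny neuron score as a covariate.

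The other 11 of the 12 largest falls were Rps14-ps7, Sv2c, Slc7a14, Gprin3, Zfp532, Rplp2l2, St8sia3, Cds2, Plcxd3, Dcp2 and Gucy1a2. Sv2c, a synaptic vesicle protein of the striatum, had 6.34 to 60.8 CPM (median 26.5) in the high group and 5.20 to 92.6 CPM (median 67.9) in the low group, a difference of -1.26 (SE 0.19, adjusted p = 4.44e-08). Yet 2 low libraries were below all high ones. Zfp532 differed by -1.04 (SE 0.26, adjusted p = 3.05e-04), and by -0.90 without the library that held 9.18% of its counts on it. Slc7a14 differed by -1.21 (SE 0.23, adjusted p = 6.90e-06) and Gprin3 by -1.08 (SE 0.17, adjusted p = 1.52e-07). With the ribosomal covariate Sv2c, Slc7a14 and Gprin3 had 0.037, 0.32 and 0.12, and none passed. Rpl37, Rpl30l2, Cox7a2l2, Rps14-ps7 and Rplp2l2 have near-identical copies or parent genes, and their values are uncertain. Rpl37 had 2.67 to 60.8 CPM (median 19.2) in the high group and 1.44 to 14.2 CPM (median 4.97) in the low group, a difference of 1.45 (SE 0.23, adjusted p = 7.73e-08).

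The libraries were also ranked by 2 other myelin measures. Groups of 36 formed by Mobp shared 25 of 36 high and 26 of 36 low libraries with those by Mbp, and groups formed by the myelin membrane score shared 24 and 26. Ranking by Mobp called 3959 genes higher (25.8%) and 2127 lower (13.9%), and ranking by the score called 2073 higher (13.5%) and 1158 lower (7.56%). Of the 83 oligodendrocyte genes, 77 were higher by the Mobp ranking, with a median of 0.37, and 72 by the score, with a median of 0.58, and none was lower by either, though these rankings used some of the 83. Of the genes outside the myelin membrane list, Olig1 had 0.61 and Myrf 0.54 by the score.

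By the score, ribosomal proteins had a median of 0.16 with 9 of 20 higher, microglia 0.21 with 7 of 12, red blood cells 0.32 with none of 7, and cortical neurons 0.086 with 1 of 8 lower. Medium spiny neuron genes had -0.12 with 3 of 12 lower, and cholinergic genes -0.31 with 6 of 7 lower. Whether these differences depart from those by Mbp was not tested, since the libraries overlap.

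**Figure D5:**
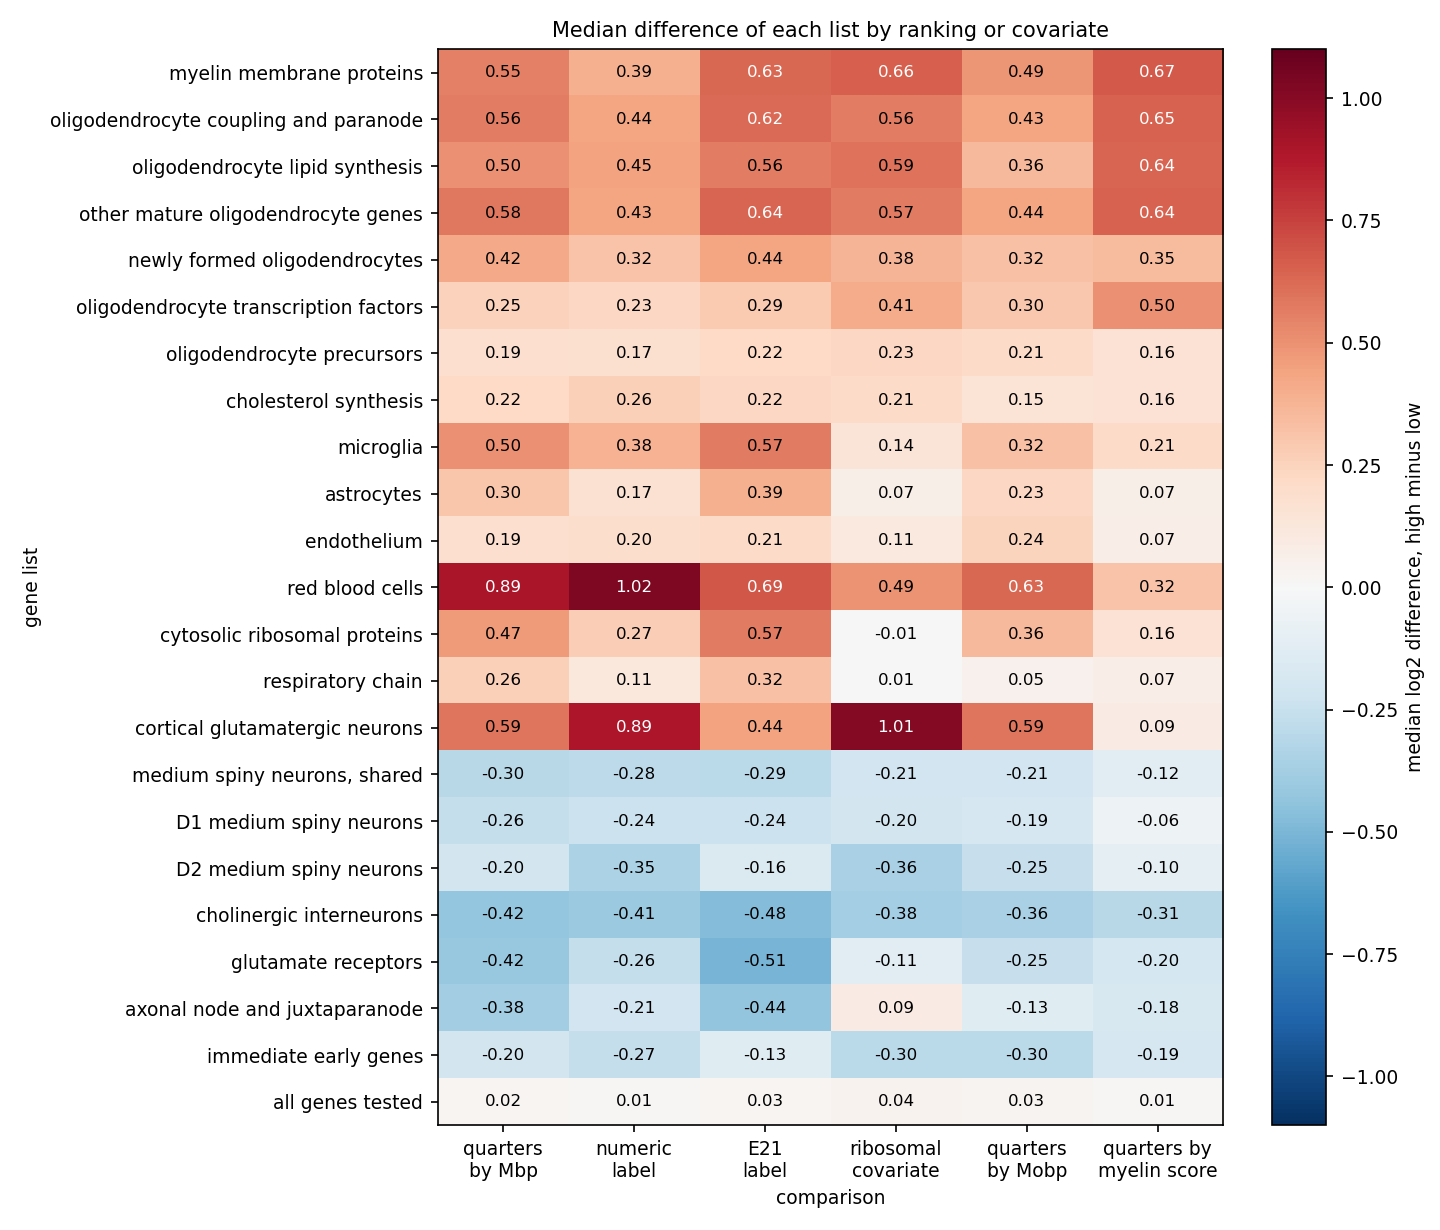
Median log2 difference of each list's genes, high minus low, in 6 comparisons: groups by Mbp over all libraries, within numeric label and within E21 label libraries, with the ribosomal protein score as a covariate, and with groups formed by Mobp or by the myelin membrane score. The ranking by score used the myelin membrane list and the covariate used the ribosomal list, so those 2 cells are descriptions. Mobp is in the myelin membrane list, so the cell of that list under the Mobp ranking is in part a description. The 7 oligodendrocyte lists stay positive throughout, while microglia, respiratory chain and axonal node genes go from 0.50 to 0.14, 0.26 to 0.0054 and -0.38 to 0.090 between all libraries and the ribosomal covariate.

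Within label formats the groups held 11 high and 13 low numeric libraries and 21 high and 22 low E21 libraries. The groups were set over all libraries, and Mbp was not matched between formats. The highest Mbp of a numeric library was 11538 CPM, at rank 12, and that of an E21 library 19356 CPM. The part of Mbp in differences between formats was not tested. The numeric libraries called 2728 genes higher (17.8%) and 2641 lower (17.2%), with 63 of 83 oligodendrocyte genes higher, none lower and a median of 0.37. E21 libraries called 4976 higher (32.5%) and 3935 lower (25.7%), with 68 higher, 1 lower and a median of 0.56. A test of the difference between formats passed for 399 genes, 2.60% of all, of which 287 (71.9%) had the larger value in E21 libraries, and under quantile normalization for 413, of which 60.5%. It passed for 5 of the 83 oligodendrocyte genes, Jam3, Olig1, Olig2, Cryab and Evi2a. Olig1 differed by 0.84 against 0.39 on the log2 scale in E21 against numeric libraries, and Cryab by 1.04 against 0.43. Mobp had 0.87 and 0.75, and the test of their difference did not pass (adjusted p = 0.646).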

How the data were processed

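PolyA RNA of the nucleus accumbens core was sequenced in 192 rat libraries, of which the table used here holds 159. The authors deposited log2 values of expected counts (plus 1) per gene, made with kallisto 0.48 per the submitters' processing notes. The unit was read from the values. No source used here gives the genome build, annotation, strand or how counts were summed to 38354 genes. Values were turned back (2 to the value, minus 1), scaled to 1000000 per library (CPM) and put on a log2(CPM + 1) scale, so differences of low genes are understated. Total expected counts were 14.6 to 61.2 M per library, so 1 CPM is at least 14.6 expected counts.

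Libraries with Drd1 of at least 100 CPM were ranked by Mbp CPM and the top and bottom 36 compared with limma 3.58.1 in R 4.3.3 (intensity trend, Benjamini-Hochberg adjustment over 15326 genes of mean CPM 1 or more). The middle 75 libraries were fitted with a slope on log2 Mbp, and an interaction tested label formats. The 100000-resample permutation test and Fisher's exact test used scipy 1.17.1. In simulated data for the group comparison of 15326 genes, the fit recovered 86 of 100 genes changed by 0.25 and 93 of 100 changed by 0.5, with 9 unchanged genes called. The simulated noise was independent between genes, so these counts do not measure false calls where genes move together. Gene spans and promoters came from RefSeq tables of GRCr8, matched by symbol for 100% of tested genes and for 61 of 83 oligodendrocyte genes.

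The members and gene lists were chosen with earlier results of these data known. Genes named are the 12 largest rises and 12 largest falls among called genes without a locus-number symbol, up to 4 members per list by smallest p, the oligodendrocyte list members, the 10 genes most like Mbp in the middle libraries, and genes said to be picked after their values were seen. The alternatives were other pseudocounts, filters, scalings, covariates, label formats, group sizes and rankings. Genes with a mean under 1 CPM and the 12 libraries under 100 CPM of Drd1 were left out. Some members counted in the lists are not reported by name here.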

Additional observations from a re-analysis of the deposited data

Results flagged for a closer look

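For 12 of the genes named, the difference between the Mbp groups was not the same in the 2 main label formats, by limma's interaction test with Benjamini-Hochberg adjustment over all genes. Each value here is the log2 group difference in E21 libraries minus that in numeric libraries. Mbp itself reached 19356 CPM in E21 and 11538 CPM in numeric libraries of the high group, and its part in these values was not tested. Among oligodendrocyte genes it was 0.61 for Cryab, 0.45 for Olig1, 0.44 for Olig2, 0.36 for Evi2a and 0.36 for Jam3. For Cd9 it was 0.50 and for Gna12 0.30. Ribosomal protein genes had 1.64 (Rpl37), 0.38 (Rplp0), 0.37 (Rps6) and 0.37 (Rps3). The sodium channel gene Scn8a had -0.50, a larger fall in E21 libraries. Adjusted p ran from 0.0129 to 0.0492.

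Outside the comparison, the 12 libraries with less than 100 CPM of Drd1 also carried much Mbp RNA: 11 of them lay above the high group's median of 10959.5 CPM, and they ranged from 1469.7 to 17009 CPM with a median of 15048. Their Drd1 was between 1.61 and 20.0 CPM, and they were left out for that value and not for Mbp.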

How the results depend on the processing

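No paired analysis was possible because the labels give no replicate numbers that pair libraries across the groups. The count of 9882 genes called moved by over 1.5 times in 5 alternatives: 5369 in numeric label libraries alone, 6086 when ranked by Mobp, 3231 when ranked by the myelin score, 3186 with the ribosomal protein score as a covariate and 1570 with both of the last 2. The count of 732 at an absolute log2 difference of at least 0.5 was 1119 and 385 with pseudocounts of 0.1 and 5, 307 with the medium spiny neuron score as a covariate, 288 and 1345 within numeric and E21 labels, 402 and 2024 with 49 and 14 libraries per group, 151 and 178 when ranked by Mobp and the myelin score, 1531 in the libraries of lowest cortical score, regrouped 18 against 18, 390 with the ribosomal covariate, 1123 when Mbp was ranked after median-of-ratios scaling, and 160 with the myelin score ranking and ribosomal covariate. The higher share of the calls, 55.1%, ranged from 49.6% under quantile normalization to 80.4% with the myelin score ranking and ribosomal covariate. With median-of-ratios size factors 5083 genes were higher and 4877 lower, and at the 0.5 threshold 346 and 369. The 1831 slopes called in the middle libraries became 211 with the ribosomal covariate. The tests of totals and label formats by Mbp group kept their side of the threshold with 49 and 14 libraries per group.

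Of 88 genes named, 44 kept their direction and their side of the threshold in every alternative run. Of differences that passed the test here or in the alternative, the following changed sign. By the myelin score ranking Nfasc was 0.26, and with the ribosomal covariate Nfasc was 0.51, Tppp was 0.33, Cemip2 was 0.20, Scn8a was 0.16, Sv2c was 0.037, Gprin3 was 0.12 and Slc7a14 was 0.32, and by both the score ranking and the ribosomal covariate Nfasc was 0.40, Tppp was 0.19 and Cemip2 was 0.092. By the Mobp ranking Tppp was 0.16 and Cemip2 was 0.057, and in the libraries of lowest cortical score Itpr2 was -0.17 and Ppp1r1b was 0.016, and with the medium spiny neuron score as a covariate Slc17a7 was -0.47, Cck was -0.18 and Penk was 0.037. Of differences that passed in neither, the following changed sign. In the libraries of lowest cortical score Cntn2 was -0.092, Pex5l was -0.092 and Sox6 was -0.12, and ranked by Mbp after median-of-ratios scaling Cntn2 was -0.037, Pex5l was -0.022, Sox6 was -0.049 and Itpr2 was -0.11, and within numeric labels Nfasc was 0.13, Sox8 was -0.10, Tppp was 0.10 and Sox6 was -0.0084. By the Mobp ranking Nfasc was 0.16 and Sox8 was -0.057, and with label format as a covariate Sox8 was -0.0036, Tppp was 0.00058 and Sox6 was -0.0011, and with the ribosomal covariate Sox8 was -0.076 and the slope of Drd1 was 0.025. Under quantile normalization Tppp was 0.018, Sox6 was -0.031 and Itpr2 was -0.034, and scaled to totals without the oligodendrocyte genes Tppp was 0.0058, and with log2 total as a covariate Tppp was 0.0071. With the medium spiny neuron score as a covariate Tppp was 0.060, Pex5l was -0.050 and Sox6 was -0.041, and by the myelin score ranking Tppp was 0.12, and without the 2 high libraries of low myelin score Tppp was 0.0044. With the cortical score as a covariate Pex5l was -0.0070 and Sox6 was -0.0074, and within E21 labels Pex5l was -0.016 and Itpr2 was -0.013, and with 49 libraries per group Pex5l was -0.014, Sox6 was -0.022 and Itpr2 was -0.065. With the side of Xist as a covariate Pex5l was -0.017, Sox6 was -0.0026 and Itpr2 was -0.033, and with median-of-ratios size factors Sox6 was -0.015 and Itpr2 was -0.010, and as a slope on Mbp over all 147 libraries Sox6 was -0.0093 and Itpr2 was -0.034. Without the 2 libraries of highest Mbp Sox6 was -0.0077 and Itpr2 was -0.014, and without the Zfp532 library Sox6 was -0.024 and Itpr2 was -0.036, and with 14 per group Itpr2 was -0.055. The cause was not tested. The depth of 14.6 M or more limits low genes only.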
